A study of Mus musculus with 11 samples.

Results

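The 5 arrays described here hold RNA of neural crest from mouse embryos, out of 11 arrays in the series. They were taken as all samples labelled neural crest at embryonic day 8.5 (E8.5). A gene was called on in an array when its deposited ratio was 4 or more, and the text follows which of 19938 genes were on in 5, 4, 3, 2, 1 or 0 of these arrays. The study also took 3 samples of neuroepithelium and 3 of paraxial mesoderm at the same age. All embryos were of the outbred CD1 stock, with no allele or agent named. Per the labels, frozen embryos were cryostat sectioned, tissue was cut out by laser on an Arcturus Veritas, RNA was purified with a Zymo kit, and it was amplified with NuGEN's Ovation Pico system before biotin labelling and hybridisation to an Affymetrix mouse ST array. The series text speaks of single cells, while the labels give tissues and state neither how many cells, which embryo nor which axial level an array came from. Nothing says that arrays 1 to 5 came from separate embryos, so p-values measure the spread between these arrays, which may be technical in part.

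Neural crest cells arise at the border of the neural plate, lose their epithelial contacts and migrate through the embryo, where they form peripheral neurons, glia, pigment cells and much of the facial skeleton. A border programme (Msx, Pax and Zic factors, under Wnt and BMP signals) comes first. The crest specifiers (Snail, SoxE, Tfap2, Foxd3, Twist and Myc family factors) follow, and cadherins and small GTPases act in delamination. At E8.5 in the mouse, cranial crest is leaving the neural folds, so that border, delaminating and migrating cells exist side by side.

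What a ratio means sets what on can mean. For each probe the deposited value equalled 1 (within 1e-05) on exactly 1 of 8 given arrays for 26141 of 28856 probes, with 3 or 4 of those 8 below it. The reference therefore behaved as the middle of 9 arrays, 8 of them among the 11 (crest arrays 1, 2 and 4 included, crest arrays 3 and 5 not). A gene at a high level on most arrays has a ratio near 1, and no gene can be on in more than 4 of the 8 reference arrays. On thus means well above the middle array, and a gene that was not on can still be expressed everywhere. In a capture, fewer cells that make a transcript and less of it per cell cannot be told apart. Because of this, the 7 genes on in all 5 crest arrays could be on in at most 1 of the 5 other reference arrays.

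The tissue label was set against markers. Of 10 crest markers, 5 were on in a crest array (Snai1, Sox9, Sox10, Tfap2b and Twist1), and their summed ratio ran from 62.1 to 155 on the crest arrays, from 9.78 to 31.1 in neuroepithelium and from 8.74 to 10.2 in paraxial mesoderm. Snai1 was the marker on in every crest array and made up much of the sum. Without it the sum of the other 9 was 11.1, 62.0, 33.5, 12.5 and 114 on crest arrays 1 to 5 and 8.78, 14.9 and 30.3 in neuroepithelium, so that on crest arrays 1 and 4 Snai1 alone set the sum above neuroepithelium. Markers of other tissues were mostly near 1 in crest. None of 8 primitive erythrocyte, 12 gut endoderm, 7 notochord, 12 cardiac, 18 somite and paraxial mesoderm, 10 lateral plate or 11 placode markers was on in any crest array. The exceptions were 1 of 6 neuroepithelium markers (Nes), 1 of 12 surface ectoderm markers (Krt8), 1 of 13 endothelium markers (Ramp2) and 1 of 24 epithelial junction and polarity genes (Jup), each on in 1 crest array. Since a somite marker near 1 was also near 1 in paraxial mesoderm, such a value does not show absence.

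Across the 5 crest arrays 2843 genes (14.3%) were on in 1 or more, and 1211 (6.07%) in 2 or more. Counts fell steeply with each further array: 1632 genes were on in 1, 802 in 2, 336 in 3, 66 in 4 and 7 in all 5, with 409 (2.05%) in 3 or more. At the other end, 17095 genes were on in none. Of 4543 values of 4 or more on the crest arrays, 1181 were under 8 and 2176 (47.9%) were 16 or more, while 1489 further values lay between 2 and 4. With the threshold at 2 the numbers on in 5, 4 and 3 arrays were 11, 128 and 515, and at 8 they were 3, 42 and 199. Of the 19938 genes, 15931 (79.9%) stayed within 2-fold of the reference on all 5 arrays. No filter for expression was applied, so these can include genes that were not expressed, and all 1015 olfactory receptors were among them.

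The number of genes on differed between arrays of the one tissue. It was 410 (2.06%) on array 1, 1159 (5.81%) on array 2, 1064 (5.34%) on array 3, 410 (2.06%) on array 4 and 1500 (7.52%) on array 5. Arrays 1 and 4 were thus low and arrays 2, 3 and 5 high. The ratios of on genes went the other way, with medians of 26.2, 15.1, 15.8, 24.4 and 12.7. Low values, at 0.25 or less, were also most frequent on arrays 1 and 4, at 503 and 297 genes against 73, 138 and 67 on arrays 2, 3 and 5. The arrays of the other tissues had 101 to 452 genes low and 381 to 1617 on. The crest mean of 908.6 ± 483 (SD, n = 5) and the mean of the other 6 arrays of 873.2 ± 440 (SD, n = 6) differed by 35.4 genes (two-sided exact permutation test over 462 assignments, p = 0.883, smallest possible p 0.00433). The labels name no batch, amount of input or cell number that could be set beside these counts.

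**Figure D1:**
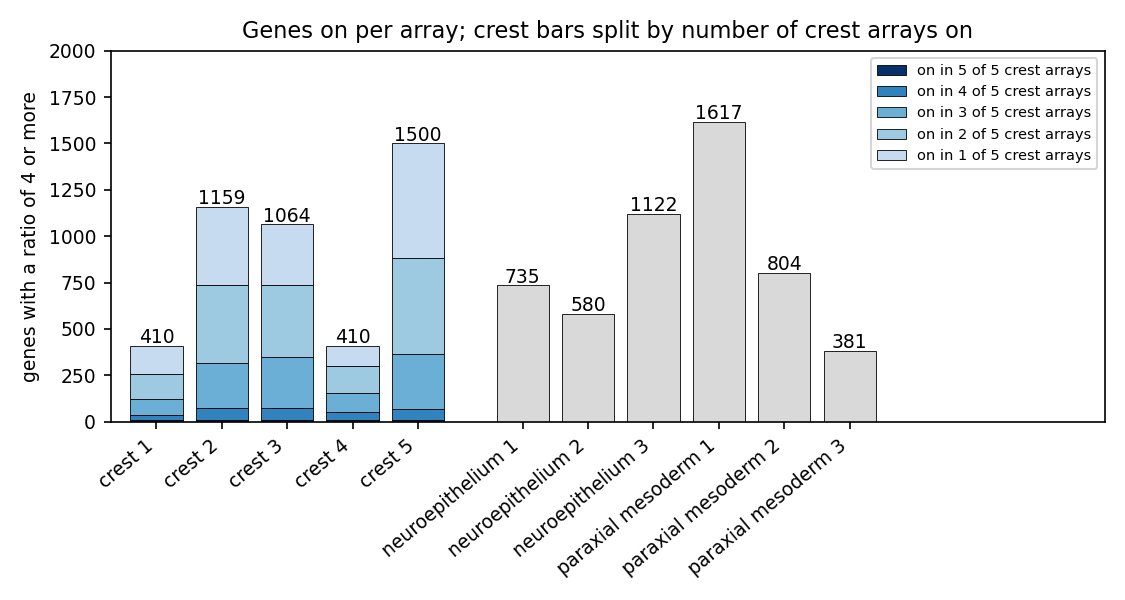
Number of genes with a ratio of 4 or more on each of the 11 arrays (y axis, genes); crest bars are stacked by the number of crest arrays in which the gene was on, grey bars are the other tissues. Crest arrays 1 and 4 hold 410 genes each and crest array 5 holds 1500, and the darkest band, the 7 genes on in all 5, is hardly visible.

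The 7 genes on in every crest array (0.0351% of genes) were Snai1, Ddx47, Ppp2r2a, Smarcb1, Mrps6, Pepd and Plekhj1. Snai1 encodes the Snail repressor that silences E-cadherin as crest cells delaminate. Its ratio was 51.0, 47.0, 82.1, 54.9 and 41.2 on crest arrays 1 to 5 and 0.800 to 1.17 on the other 6. All 5 crest values lay far above every other value, and they spanned 1.99-fold, the narrowest range of the 7. Ddx47, a DEAD box RNA helicase of ribosomal RNA processing, read 23.5, 37.8, 33.1, 108 and 21.0 in crest, against 0.907 to 1.02 elsewhere. Array 4 was the high one for Ddx47, and again no crest value came near the others.

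In limma, with crest set against the mean of the other tissues' means, the log2 difference of Snai1 was 5.79 (SE 0.19, limma adjusted p = 2.63e-06), and that of Ddx47 was 5.25 (SE 0.38, limma adjusted p = 0.0015). They were the only genes called higher in crest (0.01% of genes), and 2 genes were called lower (0.01%), Epcam and Ypel1. These were high in neuroepithelium alone: the mean log2 ratio of Epcam was -0.02 in crest, 5.30 in neuroepithelium and -0.02 in paraxial mesoderm, and that of Ypel1 was -0.15, 4.94 and -0.25. So neither was lower in crest than in paraxial mesoderm. At an unadjusted p under 0.05 limma had 590 genes (2.96%), fewer than the 997 (5%) that no difference in any gene would give. With an intensity trend in the fit, Snai1 still passed (limma adjusted p = 0.0354), whereas Ddx47 did not (limma adjusted p = 0.194). The count of 4 became 28 without paraxial mesoderm array 3, 14 without paraxial mesoderm array 2 and 9 without paraxial mesoderm array 1. It was 8, 11 and 10 without neuroepithelium arrays 1, 2 and 3 and 8 without crest array 1.

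The other 5 genes on throughout crest were also on in 1 or 2 arrays of another tissue. Ppp2r2a, a regulatory subunit of the phosphatase PP2A, read 17.3, 24.3, 16.03, 11.7 and 15.5 in crest and 9.90 on paraxial mesoderm array 1. Its crest values did not overlap the other 6. Smarcb1, a core subunit of the SWI/SNF chromatin remodelling complex, read 6.48, 19.5, 10.1, 21.5 and 18.1, lowest on array 1, with 13.1 on neuroepithelium array 1. Mrps6, a protein of the small mitochondrial ribosomal subunit, read 60.1, 37.2, 17.3, 10.4 and 6.27, a range of 9.59-fold, with 22.1 on paraxial mesoderm array 2. Thus Smarcb1 and Mrps6 overlapped 1 array each outside crest. Pepd, a peptidase that cleaves dipeptides ending in proline, read 26.6 on array 1 and 4.97, 9.35, 6.93 and 7.30 on arrays 2 to 5, with 22.9 on neuroepithelium array 3. Plekhj1, a pleckstrin homology domain protein, read 14.4, 11.2, 17.1, 10.4 and 4.43, with 10.1 on neuroepithelium array 2 and 9.29 on paraxial mesoderm array 1. None of these 5 passed the test (limma adjusted p = 0.968 for each), with log2 differences of 3.91 (SE 0.75) for Ppp2r2a, 4.02 (SE 0.91) for Smarcb1 and 2.97 (SE 1.08) for Plekhj1.

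**Figure D2:**
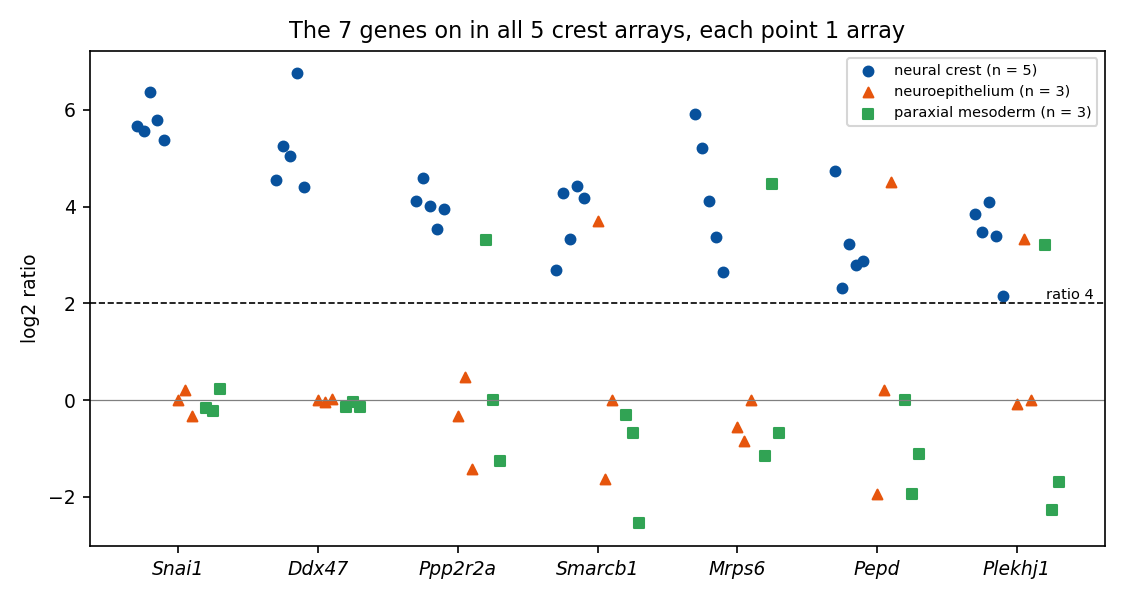
Log2 ratio (y axis) of the 7 genes on in all 5 crest arrays, each point 1 array; the dashed line marks a ratio of 4. Snai1 and Ddx47 have all 6 other arrays near 0, whereas each of the other 5 genes has 1 or 2 arrays of another tissue above the line.

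The size of the constant set depended on 2 arrays. Leaving out crest array 1, 44 genes were on in all 4 arrays left, and leaving out array 4 there were 30. Of the 66 genes on in exactly 4 arrays (73 genes, 0.366%, in 4 or more), 37 were off on array 1 and 23 on array 4. The off value was not a near miss: the highest among the 66 was 1.48, for G6pc3, and the lowest on value among the 7 was 4.43, for Plekhj1. With each gene centred on its median over 11 arrays, only Snai1 and Ddx47 were on in all 5, and after quantile normalization 4 genes were. Against the second-lowest of the 11 arrays as reference, a choice made after seeing the data, 79 genes were 4-fold higher on all 5 crest arrays (0.396%), and 38 of these were also high on every other array that could be.

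The upstream sequences of Snai1 and Ddx47 are given because these 2 genes carry the constant crest pattern, so that their promoters can be compared. Both come from RefSeq on GRCm38.p6, as the 250 bases before the annotated start. The window of Snai1 is chr2:167537945-167538194 and that of Ddx47 is chr6:135011362-135011611, both on the + strand. Capitals mark the E-box core CANNTG, the general binding motif of basic helix-loop-helix factors and, as CACCTG, of Snail factors themselves.
Snai1: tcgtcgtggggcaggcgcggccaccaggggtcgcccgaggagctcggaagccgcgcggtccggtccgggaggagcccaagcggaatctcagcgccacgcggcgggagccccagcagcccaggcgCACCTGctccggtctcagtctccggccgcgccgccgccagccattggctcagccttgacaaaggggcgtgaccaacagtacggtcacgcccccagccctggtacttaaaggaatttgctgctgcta
Ddx47: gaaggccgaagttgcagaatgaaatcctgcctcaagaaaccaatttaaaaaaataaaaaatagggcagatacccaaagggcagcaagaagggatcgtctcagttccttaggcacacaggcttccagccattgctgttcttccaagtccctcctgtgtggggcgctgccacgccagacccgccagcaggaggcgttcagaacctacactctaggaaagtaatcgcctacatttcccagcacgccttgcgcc
The Snai1 window held 1 CANNTG, which was a CACCTG, and the Ddx47 window held 0. Of all 32851 windows in the table, 66.2% held CANNTG and 17.2% held CACCTG or its reverse complement CAGGTG, so that a match is common. The motif CCAAT, searched on both strands, was in both windows and in 33.8% of all, whereas TATAAA (12.4% of all) and GGGCGG (32.7% of all) were in neither. The Snai1 window was 70% G and C and that of Ddx47 52%, beside a median of 52.4%. Of the 7 genes 6 had an entry, and CACCTG was in 1 of these 6.

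Genes on in 4 crest arrays were described by the 5 with the highest minimum. Inka1, a regulator of PAK kinases and the actin cytoskeleton, read 1.00 on array 1 and 102, 97.6, 111 and 118 on arrays 2 to 5, with 10.3 on paraxial mesoderm array 1. Chchd4, which imports proteins into the mitochondrial intermembrane space, read 76.0, 54.5, 56.1, 0.969 and 85.2, with 41.7 on neuroepithelium array 3 and 57.4 on paraxial mesoderm array 1. Array 1 was thus the exception for Inka1 and array 4 for Chchd4. Pstk, a kinase in selenocysteine tRNA synthesis, read 0.859, 63.1, 51.6, 44.9 and 51.6. Zpr1, a zinc finger protein, read 46.6, 43.7, 0.765, 42.6 and 42.7, and was off on array 3. Mrps7, of the mitochondrial ribosome, read 0.976, 55.0, 45.2, 38.9 and 47.7. Paraxial mesoderm array 1 was on for these as well, at 33.5 for Pstk, 8.15 for Zpr1 and 16.9 for Mrps7. In each of these 5 the 4 on arrays agreed to within 2-fold while the fifth sat at the level of most other arrays.

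Unlike those 5, a further 9 genes on in 4 crest arrays were on in none of the 6 others, and they are named here after their values were seen. Ifrd1, a transcriptional coregulator, read 0.913, 81.5, 72.9, 113 and 38.6, and Ppp1r1a, an inhibitor of protein phosphatase 1, read 1.33, 31.9, 13.4, 29.1 and 24.9. Tpm4, an actin-binding tropomyosin, read 25, 9.04, 10.6, 0.546 and 8.03. Ugdh, which makes the sugar precursor of hyaluronan, read 0.401, 7.35, 40.7, 5.38 and 29.9. Spred2, an inhibitor of Ras to ERK signalling, read 0.857, 4.19, 7.64, 10.4 and 30.6. These 5 were off on array 1, apart from Tpm4, which was off on array 4. Wee1, a kinase that holds cells before mitosis, Gid8, of a ubiquitin ligase, and Mrpl19, of the mitochondrial ribosome, were off on arrays 4, 5 and 1 respectively. Riok3, a RIO kinase of ribosome maturation, was off on array 4. None of the 9 passed in limma (adjusted p = 0.968).

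In all, 956 genes (33.6% of those on in a crest array) were on in none of the other 6 arrays. Such genes were mostly seen once. Of the 1632 genes on in 1 crest array 55.8% were on in an array of another tissue, and of the 802 on in 2, the 336 on in 3 and the 66 on in 4 the shares were 78.3%, 85.1% and 86.4%. Among genes on in no crest array the share was 8.63%. Genes on in several crest arrays were therefore, as a rule, also on somewhere outside crest, and the 2 exceptions among the 7 constant genes were Snai1 and Ddx47.

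All 31 possible combinations of crest arrays occurred, led by array 5 alone (617 genes), array 2 alone (422), array 3 alone (329), 2 with 5 (217), 3 with 5 (191) and 2, 3 and 5 together (160). Array 1 alone had 154 genes and array 4 alone 110. Of the 1211 genes on in 2 or more, 701 (57.9%) were on only among arrays 2, 3 and 5, while 256 (21.1%) were on in array 1 and 300 (24.8%) in array 4. Arrays 2, 3 and 5 also had the most genes on, at 1159, 1064 and 1500 against 410 each on arrays 1 and 4. Larger totals alone raise the number shared, and whether the 57.9% exceeded what they give was not tested. Arrays 3 and 5 shared 496 genes, which was 46.6% of the calls of array 3 and 33.1% of those of array 5. Arrays 1 and 4 shared 46, which was 11.2% of each. These 2 arrays shared more low genes than on genes, at 140. That was not particular to crest: array 1 shared 217 low genes with neuroepithelium array 2 and 225 with paraxial mesoderm array 3. Array 4 shared 142 with neuroepithelium array 2.

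**Figure D3:**
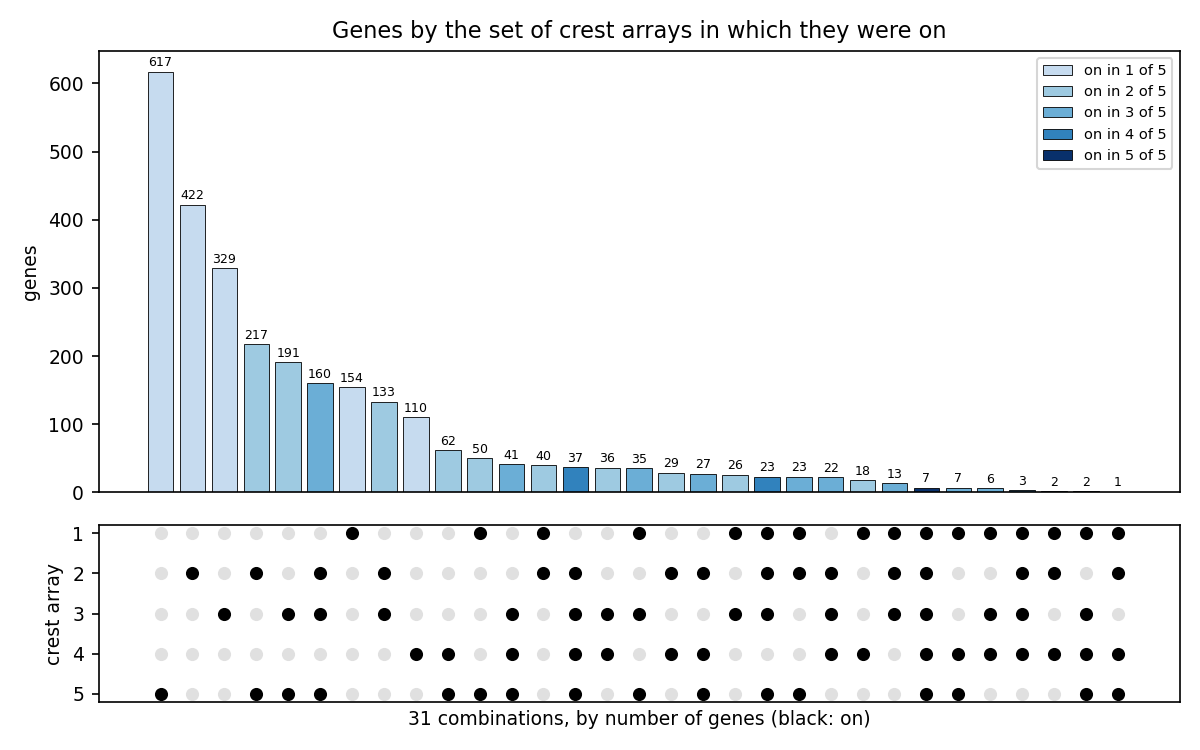
Number of genes (bars) for each of the 31 combinations of crest arrays in which a gene was on (black dots below each bar). The 6 tallest bars involve only arrays 2, 3 and 5, the crest arrays with the most genes on.

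The agreement of on calls was measured for each pair of arrays by phi, the correlation of 2 on and off calls across genes, which are not independent replicates. Among the 10 crest pairs phi ran from 0.0936 (arrays 1 and 4) to 0.352 (arrays 3 and 5), with a mean of 0.210. Between a crest array and an array of another tissue it ran from 0.0624 to 0.330, with a mean of 0.172. The difference of 0.0381 was within what reassigning the arrays gave (two-sided exact permutation test over 462 assignments, p = 0.277). Each crest array had a higher mean phi with crest than with other arrays, by the least for array 5, at 0.261 against 0.252. Paraxial mesoderm array 1, with 1617 genes on, was the closest array outside crest for crest arrays 1, 2, 3 and 5, and the number of genes on moved with phi. Its part in the agreement was not tested.

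Genes that went on together in arrays 2, 3 and 5 included Wtap, a subunit of the RNA methylation complex, at 159, 79.8 and 51.0 on those arrays and 1.00 and 0.971 on arrays 1 and 4. Drg1, a GTPase, read 101, 50.1 and 47.9 there against 0.732 and 0.838. Gorasp2, a Golgi stacking protein, and Slc35b1, a nucleotide transporter of the endoplasmic reticulum, followed the same combination at 48.2 or more and 44.2 or more. Itm2a, a membrane protein, took another one, with 76.2, 80.6 and 54.9 on arrays 3, 4 and 5. Each of these 5 genes was also on in 1 to 3 arrays outside crest. Among genes on in 2 arrays the highest minima were those of Tmem109 (arrays 1 and 4), Auh (arrays 1 and 2), Elp6 (arrays 4 and 5), Isy1 (arrays 2 and 5) and Pcnp (arrays 2 and 4), a different pair each time, all at 64.2 or more on both arrays.

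Crest specifiers were patchy. Of 21 measured, 11 (52.4%, beside 14.3% of all genes) were on in 1 or more crest arrays: Snai1 in 5, Lmo4, Myc, Nr2f1 and Tfap2b in 3, Sox9 and Twist1 in 2, and Id2, Mycn, Sox10 and Tfap2c in 1. The list was chosen for crest and Snai1 was known from these arrays, so the share is a description. Array 5 had 10 of the 21 on, array 2 had 6, array 3 had 5, and arrays 1 and 4 had 2 each. Of all genes 7.52%, 5.81% and 5.34% were on in arrays 5, 2 and 3, and 2.06% in each of arrays 1 and 4. The specifier counts thus followed the order of the array totals. Outside crest 3 of the 21 (14.3%, beside 16.9% of all genes) were on in any of 6 arrays. In limma Snai1 was the single member called, and no member was called lower.

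Tfap2b, an AP-2 factor of the early crest, read 1.00, 27.9, 21.4, 0.936 and 51.3, and was also 22.6 on neuroepithelium array 3. Lmo4, a LIM domain partner of Snail factors, read 1.05, 10.8, 85.6, 0.985 and 98.3, against 0.797 to 3.88 in the other tissues. Both were on in arrays 2, 3 and 5 and near 1 on arrays 1 and 4. Sox9, a SoxE factor of crest survival and later of cartilage, read 1.33, 17.2, 1.46, 1.21 and 21.3, on in arrays 2 and 5. Twist1, a helix-loop-helix factor of crest mesenchyme, read 0.967, 8.79, 3.29, 1.01 and 27.3, with 5.92 on neuroepithelium array 2. Sox9 and Twist1 thus shared arrays 2 and 5, and for Sox9 the lowest crest value lay above all other 6 arrays, which read 0.574 to 1.03.

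Nr2f1, a nuclear receptor, was on in arrays 3, 4 and 5 at 10.5, 4.91 and 17.9 and read 0.888 and 1.00 on arrays 1 and 2. Sox10, the SoxE factor kept by migrating and glial crest, read 2.69, 2.42, 1.51, 1.10 and 7.67, so that only array 5 was on while arrays 1 and 2 were between 2 and 4. Tfap2c read 11.2 on array 5 and 3.18 on array 3, and Mycn read 6.65 on array 3. Id2 read 9.71 on array 5 and 3.31 on array 4, and was also on in neuroepithelium array 1 at 4.17. Foxd3, a forkhead factor of premigratory crest, missed the threshold with 3.99 on array 4 and 0.995 to 1.96 on the other 4. The genes of Snai2, Tfap2a and Ets1 stayed between 0.961 and 1.19 on all 5 crest arrays, with no higher value outside crest than 1.08.

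Myc shows a limit of the on call. Its ratio was 5.83, 4.42, 1.99, 1.42 and 4.97 on the crest arrays, on in 3, but 0.0630 to 0.318 on 5 of the other 6 and 1.57 on paraxial mesoderm array 1. All crest values lay above those 5, with array 4 just below paraxial mesoderm array 1. The log2 difference was 4.44 (SE 0.76), and it did not pass (limma adjusted p = 0.681). Against the second-lowest of 11 arrays Myc was 4-fold higher on all 5 crest arrays.

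Genes of the plate border were on at a share near that of all genes. Of 16, 2 (12.5%, beside 14.3%) were on, each in 1 array: Wnt1, the dorsal midline signal, at 32.9 on array 2 (0.930 to 1.39 on arrays 1, 3, 4 and 5), and Msx1 at 32.3 on array 3. Msx1 was also on in 4 arrays outside crest. In the facial mesenchyme list of homeobox genes 2 of 16 were likewise on, Alx1 (6.08) and Prrx2 (20.2), both on array 5 and near 1 on the other 10 arrays. Chd7, a chromatin remodeller whose loss disturbs crest derived tissue, was on in crest array 5 alone among crest, at 61.6 against 0.934 to 1.00, with 5.11 on neuroepithelium array 3. None of 26 axial position genes and none of 34 migration receptors and guidance genes was on in any crest array.

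Among 23 genes of delamination and mesenchyme 5 (21.7%, beside 14.3% of all genes) were on in crest. Outside it 5 were on (21.7%, beside 16.9% of all genes). Rhob, the GTPase induced as crest delaminates, read 34.1, 15.1, 6.27, 53.0 and 0.907, off on array 5 and 30.01 on neuroepithelium array 1. Rhoa, its relative, read 0.894, 45.9, 40.4, 0.910 and 53.5, and was 57.0 and 47.6 on paraxial mesoderm arrays 1 and 2. The GTPases therefore differed in which arrays were off: array 5 for Rhob, arrays 1 and 4 for Rhoa. Vim, the mesenchymal intermediate filament vimentin, read 5.76, 2.49, 3.19, 5.35 and 4.67, all 5 above 2. It overlapped neuroepithelium array 2 (4.42) and paraxial mesoderm array 3 (5.18). Cdh6, a cadherin of premigratory crest, was on in array 5 (8.51) and Rhoc in array 3 (14.3).

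The lineage lists had few genes on, each at a share below the 14.3% of all genes. On were 1 of 11 glial and melanocyte genes (9.09%), 1 of 15 neuronal genes (6.67%) and 1 of 22 neural progenitor genes (4.55%). These were Fabp7, Tubb3 and Nes respectively. Fabp7, a fatty acid binding protein of glial progenitors, read 0.980, 0.997, 1.04, 95.4 and 63.0, and 0.917 to 1.07 outside crest. Arrays 4 and 5 thus stood far above the other 9. Tubb3, the neuronal tubulin, read 21.7, 36.9 and 46.1 on arrays 2, 3 and 5, and was also on in 2 neuroepithelium arrays. Nes, the intermediate filament of neural progenitors, was on in array 3 at 8.48 and was not on in any neuroepithelium array (0.949 to 1.05). Array 3 was also the one crest array with Krt8 on, at 36.3 against 0.525 to 1.00, near the 33.9 to 35.2 of the neuroepithelium arrays. The summed ratio of the 12 surface ectoderm markers was 10.7 to 47.4 in crest, 178 to 234 in neuroepithelium and 10.8 to 221 in paraxial mesoderm. Its part in the calls of array 3 was not tested.

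**Figure D4:**
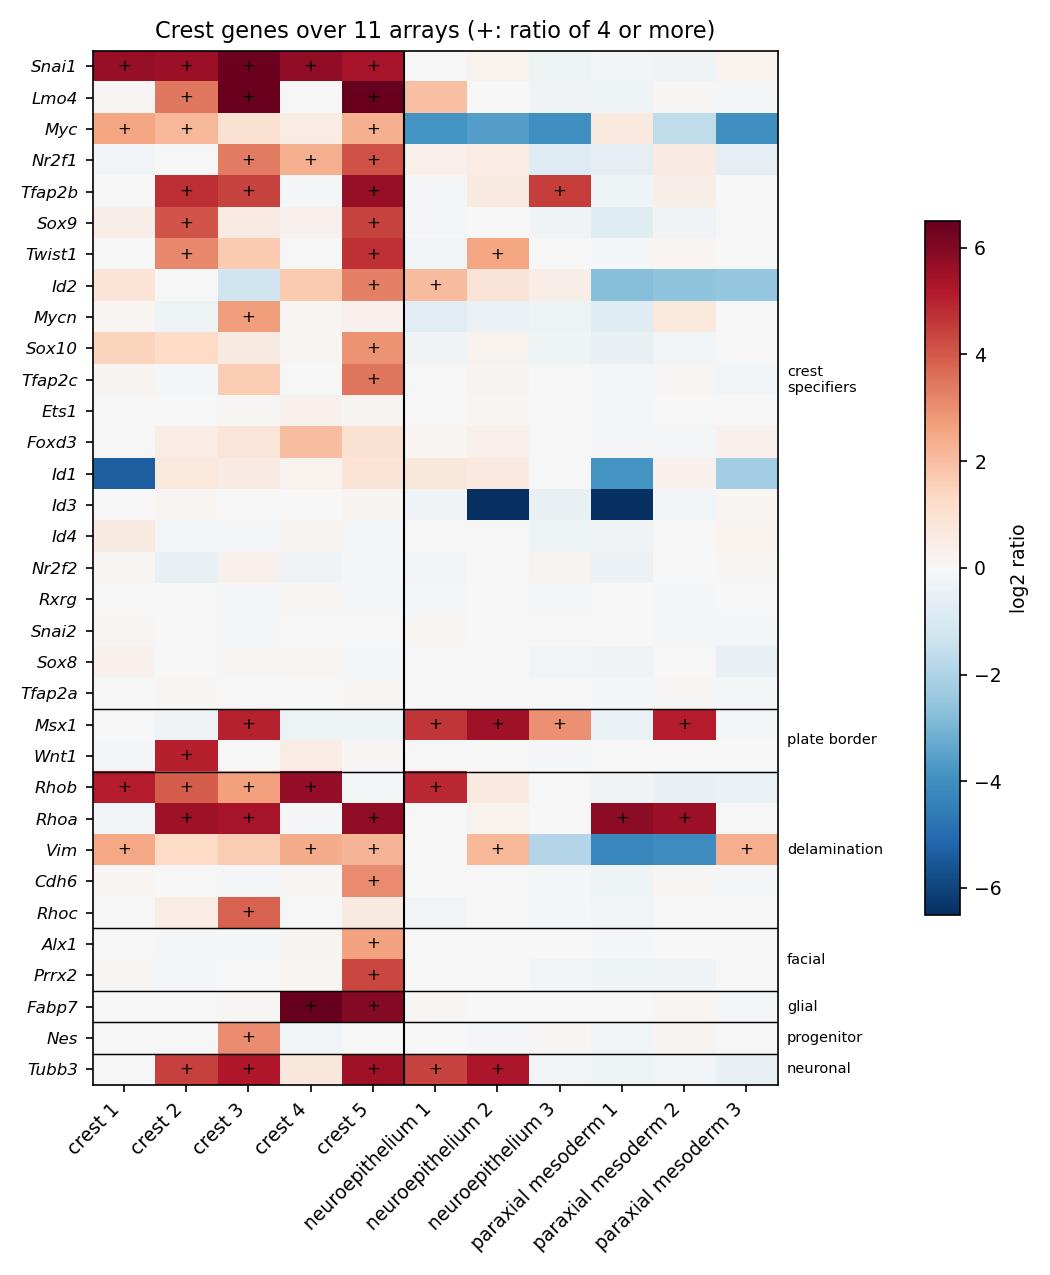
Log2 ratio (colour) of the 21 crest specifiers and of the plate border, delamination, facial and lineage genes on in crest, over the 5 crest arrays and the 6 others; a plus marks a ratio of 4 or more. Snai1 is the one row filled across crest, array 5 has 10 specifiers on, and arrays 1 and 4 have 2 each. Array 5 is also the crest array with the most of all genes on, and arrays 1 and 4 those with the fewest.

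Signalling genes were on at a share near or below that of all genes. In the Wnt list 4 of 41 (9.76%) were on, with Nkd1, a feedback inhibitor, at 22.3, 36.9 and 43.6 on arrays 2, 3 and 4 and 0.795 to 1.42 on all other arrays. In the FGF and ERK list 4 of 28 (14.3%) were on: Spred2 in 4 arrays, the kinases Map2k1 (14.2, 19.3 and 10.7 on arrays 1, 3 and 5) and Map2k2 (7.35, 5.09 and 4.21 on arrays 2, 3 and 5), and Fgf17 (5.71 on array 2). The BMP and TGF-beta list had 3 of 33 on (9.09%), the Notch list 3 of 28 (10.7%), the hedgehog list 2 of 19 (10.5%) and the retinoic acid list 3 of 19 (15.8%). Smad4, the shared mediator of BMP signals, was on in array 1 (23.9). Of the Notch genes, Hes6 was on in array 4 (26.7), and Lfng and Maml2 in array 5 (4.17 and 10.2). Gli3 was on in array 3 (6.19), and Smo (4.85) and Rara (8.64) in array 5. Each of these 7 was on in none of the other tissues, and they were the only such genes of their lists. Outside crest 8 of 41 Wnt genes (19.5%), 7 of 33 BMP and TGF-beta genes (21.2%) and 5 of 28 FGF and ERK genes (17.9%) were on. For Notch it was 1 of 28, for hedgehog 1 of 19 and for retinoic acid 3 of 19, beside 16.9% of all genes.

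Proliferation genes were on at a higher share than all genes, and none was among the 7 on in all 5 arrays. Of 45 S phase genes 23 (51.1%, beside 14.3%) were on, 16 on array 2, 13 on array 3, 16 on array 5 and 2 each on arrays 1 and 4. Among them 7 had the combination 2, 3 and 5 (30.4% of those on, beside 5.63% of all genes on in crest): Ccne1, Gins1, Orc4, Orc6, Rfc5, Rpa2 and Tyms. These shares have unlike bases, since 26.1% and 57.4% respectively were on in a single array. Of the 17 S phase genes on in 2 or more arrays, 14 (82.4%) were on only among arrays 2, 3 and 5. The share was 57.9% for all such genes, and arrays 2, 3 and 5 had the most genes on. Orc6, of the origin recognition complex, read 0.987, 5.79, 46.3, 0.884 and 77.9. Tyms, the enzyme of thymidylate synthesis, read 0.263, 8.31, 6.76, 0.406 and 11.3, and the clamp loader subunit Rfc5 read 1.03, 24.1, 25.8, 0.822 and 25.5. All 3 were thus low or near 1 on arrays 1 and 4. Exceptions ran the other way, such as Cdc45 (51.8 on array 1 and 28.3 on array 5) and Prim1 (104 on array 1). The S phase list was as often on outside crest, in 25 of 45 (55.6%, beside 16.9% of all genes).

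For G2 and mitosis 18 of 43 genes (41.9%) were on, 13 of them on array 5, 6 on array 3, 5 on array 2 and 1 each on arrays 1 and 4. Outside crest 17 of the 43 were on (39.5%, beside 16.9% of all genes). Array 5 alone accounted for 7, among them Top2a (topoisomerase II, 26.0 against 0.960 to 1.01), Hmmr (11.4), Kif23 (13.7) and Cenpf (8.29). Of the 7, 5 were also on outside crest: paraxial mesoderm array 1 read 6.09 for Hmmr, 22.6 for Kif23 and 4.79 for Cenpf, whereas Top2a was on in no other array. Cdk1, the mitotic kinase, read 0.664, 1.00, 4.46, 0.446 and 8.74. On in a single array were 11 of these 18 (61.1%) and 6 of the 23 S phase genes (26.1%), beside 57.4% of all genes on in crest. Low values were also frequent here, in 12 of 43 genes (27.9%, beside 3.65% of all genes). Of the 12, 11 were low only on arrays 1 or 4, as were 493 of the 728 low ones among all genes. Cdc25c, the phosphatase that activates Cdk1, read 0.0360 and 0.0400 on those arrays and 4.30 on array 5.

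Several machineries with many subunits were patchy among the crest arrays. Of 77 mitochondrial ribosomal proteins 36 (46.8%) were on: Mrps6 in 5, Mrps7 and Mrpl19 in 4, 11 in 3, 12 in 2 and 10 in 1. By array they numbered 6, 22, 17, 6 and 29, and 30 of the 77 were low on some array (39.0%, beside 3.65% of all genes), 22 of them on array 1. Only 4 stayed within 2-fold on all 5 arrays. They were on as often outside crest, in 40 of 77 (51.9%, beside 16.9% of all genes). Of 31 tRNA synthetases 18 (58.1%) were on, 11 in a single array, such as Cars2 (80.4 on array 3) and Iars2 (32.2 on array 1). Of 57 genes of RNA polymerases and Mediator 24 (42.1%) were on. The on shares of these families stand beside 14.3% of all genes. Outside crest 16 of the 31 synthetases (51.6%) and 26 of the 57 polymerase and Mediator genes (45.6%) were on, so their patchiness was not particular to crest.

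Proteasome and respiratory chain genes were more often low than on. In 48 proteasome genes 12 (25%, beside 14.3% of all genes) were on and 28 (58.3%, beside 3.65%) low on some array, 21 on array 1 and 12 on array 4. Psmd10, an assembly chaperone of the proteasome, read 155, 22.1, 0.938, 0.888 and 55.1, while Psmc2, an ATPase subunit, read 0.0463, 0.125, 1.09, 0.117 and 2.57. In 96 genes of oxidative phosphorylation 18 (18.8%) were on and 45 (46.9%) low, 33 of them on array 1 and 0 on array 5. Outside crest 24 of these 96 (25%) and 15 of the 48 proteasome genes (31.25%) were on, beside 16.9% of all genes. Low values of these lists were not counted outside crest, so they are not shown to be particular to crest. Ndufb5, of complex I, read 0.0191 and 0.0242 on arrays 1 and 4 and 1.36, 1.56 and 1.54 on arrays 2, 3 and 5. Over all genes 493 of the 728 low ones were low only on arrays 1 or 4.

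None of 59 cytosolic ribosomal proteins was on in a crest array. Within 2-fold on all 5 were 51 (86.4%, beside 79.9% of all genes), and 4 were low somewhere (6.78%, beside 3.65%). A ratio near 1 is here the level of most arrays, which can be high. Families not used at this stage were level too: none of 1015 olfactory receptors was on in any of the 11 arrays or left the 2-fold range on a crest array. Of 163 vomeronasal receptors 1 was on, and of 86 keratin-associated proteins and defensins none. Zinc finger genes named Zfp were on at the background, 51 of 342 (14.9%), and solute carriers below it, 19 of 323 (5.88%). Collagens, laminins and genes named Itga or Itgb had 1 of 85 on, Itgb1bp1, which binds an integrin and is none.

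**Figure D5:**
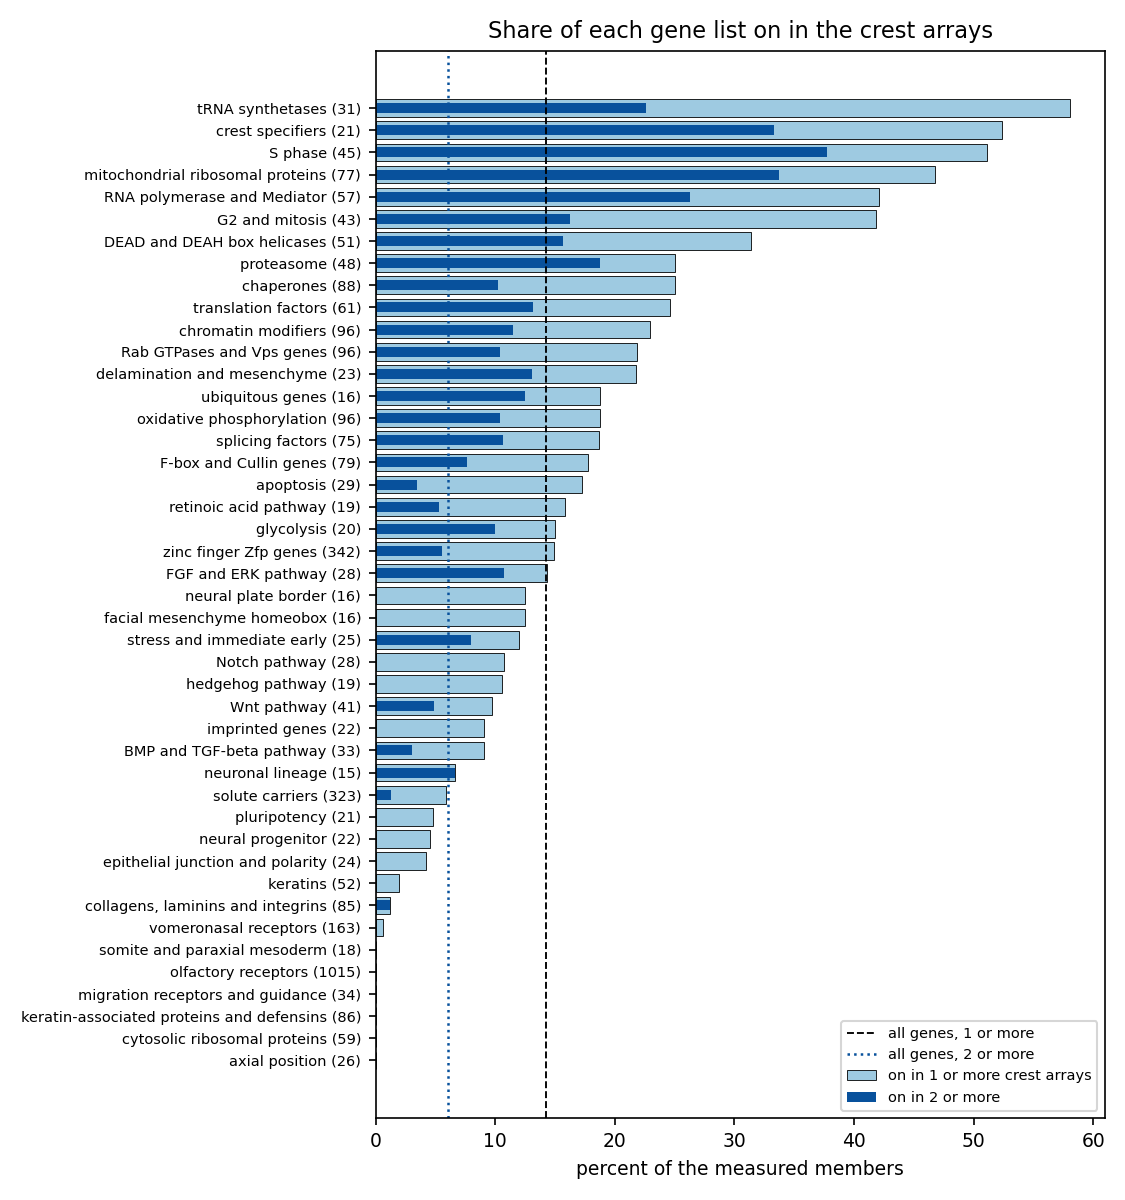
Percent of the measured members of each gene list (15 members or more, number in brackets) on in 1 or more crest arrays (light bars) and in 2 or more (dark bars); vertical lines give all genes, 14.3% and 6.07%. The tRNA synthetases, crest specifiers, S phase genes and mitochondrial ribosomal proteins stand above 45%, and axial position, migration receptors and cytosolic ribosomal proteins are at 0.

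Of 16 genes usually taken as references, 10 stayed within 2-fold on all 5 crest arrays and 3 (18.8%, beside 14.3% of all genes) were on: B2m at 21.0, 18.7 and 52.2 on arrays 2, 3 and 5, Hprt at 36.9, 44.2 and 45.3 on arrays 3, 4 and 5, and Sdha at 17.4 on array 2. Hprt was 0.291 on array 1 and was on in 4 arrays outside crest. Eif2s3y, a gene of the Y chromosome, read 132 on array 1, 12.8 on array 5 and 0.972 to 1.02 on arrays 2, 3 and 4, and was near 1 on all other arrays. Of the 7 measured genes of the list of Y-linked genes and Xist, Eif2s3y was the 1 on in crest. The other 6 stayed within 2-fold on all 5 crest arrays. The labels give no sex for any capture, and Xist was on in no crest array.

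Of 25 stress and immediate early genes 3 (12%, beside 14.3% of all genes) were on: Gadd45a at 6.23, 51.2 and 71.5 on arrays 2, 3 and 5, Ier2 at 57.2, 16.8 and 13.1 on arrays 1, 2 and 5, and Dusp1 at 52.0 on array 2. The metallothionein Mt1 was even in crest, at 0.710, 0.618, 0.684, 0.699 and 0.566, and was 12.7 to 26.6 on 5 of the 6 other arrays and 0.864 on paraxial mesoderm array 3. Every crest value of Mt1 lay below all 6 others, with a log2 difference of -4.27 (SE 0.83, limma adjusted p = 0.968). Such a separation, with all 5 crest arrays below all others, was seen for 31 genes (0.155%), and with all 5 above for 48 (0.241%).

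The genes on in a single crest array with the highest ratios had no function in common by name. Array 1 had Mpi (136), Dcps (123), Armcx3 (115), Gmds (108) and Gpr137b-ps (102), with Mpi and Gmds in mannose and fucose metabolism. Array 2 had Clybl (96.9), the small nucleolar RNA Snord49a (91.9), Tango2 (86.8), Vta1 (73.9) and Mfsd1 (72.8). Array 3 had Cars2, Trmt12 (69.1), Rimklb (66.9), Alg1 (66.1) and Crip1 (59.6). On array 4 they were Pus7l (155), Uqcc1 (151), Xrcc4 (139), Snord52 (136) and Tst (128), and on array 5 Glul (87.4), Apobec2 (83.4), Pop4 (80.3), Slc38a1 (68.6) and Hmgn5 (68.6). The top ratios were thus highest on arrays 1 and 4, which had the fewest genes on. Of the genes on in a single crest array, 80, 183, 162, 48 and 248 on arrays 1 to 5 were on in none of the other 10 arrays.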

How the data were processed

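Gene levels were read from the deposited series value table, in which each of 11 arrays has 1 column. The authors deposited linear ratios to an unstated reference. RMA and the mouse build mm9 are named per the submitters' processing notes, with no versions, and the sources used here do not say how background, scaling and any centring were handled. Scanner files were not used here. Of 35557 probes 6701 were blank and 28856 had values, 21789 of these with 1 gene symbol (21698 matched by Entrez number, 0 renamed), 1621 with several and 5446 with none, so that 7067 probes were left out. Where a gene had several probes (999 genes) the one with the highest mean log2 ratio over the 11 arrays was kept, which gave 19938 genes.

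A gene was on at a ratio of 4 or more and low at 0.25 or less. Printed ratios, marker sums and medians of on genes are on the linear scale, so that single high genes weigh most in a sum. Other results on gene levels than these and the calls used log2 of the deposited ratio. There was no pseudocount and no filter, the lowest ratio being 0.01. Crest arrays were compared with the other 6 by exact permutation of array labels (number of genes on, mean phi) and by limma 3.58.1 in R 4.3.3 (lmFit and eBayes on all genes, 3 groups, crest minus the mean of the other group means, Benjamini-Hochberg at 0.05). Both were tested on simulated data. Tables and figures were made with Python 3.11.15, numpy 2.4.6, pandas 2.3.3, scipy 1.17.1 and matplotlib 3.10.9. Arrays give no counts, so their number limits the precision, and no interval of a single ratio was computed.

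Members and the 55 gene lists were chosen with earlier results of these data known. Genes named by rule were all those on in 5 crest arrays, the 5 on in exactly 4, 3 or 2 with the highest minimum ratio, the 5 highest in each crest array alone, leaving out predicted genes, and members of the lists. Families were found by the start of the symbol, and symbols are those of the array annotation. Promoter windows came from RefSeq, GRCm38.p6. Alternatives were the threshold (2 and 8), the choice of probe, centring each gene on its 11-array median, quantile normalization, a floor of 0.05, the limma design and leaving out each array. A reference of the second-lowest array was added after seeing the data.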

Additional observations from a re-analysis of the deposited data

Results flagged for a closer look

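Among 129 genes named in the comparisons above, the value of 1 crest array stood apart from the other 4 (a gap over 0.710 of the log2 range) for 58. Chance gives such a gap in about 1 in 20 groups of normal values, but most of these genes were named for being on in 1 or 4 arrays, so the count follows in part from the choice: 50 were high in the 1 array where they were on, out of 56 tested genes on in 1, and 8 were low in the 1 array where they were off.

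The 8 low values were those of Inka1 (1.00), Pstk (0.859), Mrps7 (0.976), Ifrd1 (0.913), Ppp1r1a (1.33) and Mrpl19 (0.934) on array 1, Zpr1 (0.765) on array 3 and Chchd4 (0.969) on array 4. High values on array 1 were those of Mpi (136), Dcps (123), Armcx3 (115), Gmds (108), Gpr137b-ps (102) and Iars2 (32.2). On array 2 they were Clybl (96.9), Snord49a (91.9), Tango2 (86.8), Vta1 (73.9), Mfsd1 (72.8), Dusp1 (52.0), Wnt1 (32.9), Sdha (17.4), Ramp2 (9.03) and Fgf17 (5.71). On array 3 they were Cars2 (80.4), Trmt12 (69.1), Rimklb (66.9), Alg1 (66.1), Crip1 (59.6), Krt8 (36.3), Msx1 (32.3), Rhoc (14.3), Nes (8.48), Mycn (6.65) and Gli3 (6.19). Array 4 held Pus7l (155), Uqcc1 (151), Xrcc4 (139), Snord52 (136), Tst (128) and Hes6 (26.7). Array 5, which had the most genes on, held Chd7 (61.6), Prrx2 (20.2), Maml2 (10.2), Rara (8.64), Cdh6 (8.51), Alx1 (6.08), Smo (4.85) and Lfng (4.17), and the mitotic genes Top2a (26.0), Kif23 (13.7), Hmmr (11.4) and Cenpf (8.29). Its other high values were Glul (87.4), Apobec2 (83.4), Pop4 (80.3), Slc38a1 (68.6) and Hmgn5 (68.6).

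Probes without a single gene symbol, which enter no comparison above, were on in 1 or more crest arrays for 373 of 7067 (5.28%), and 1 of them was on in all 5.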

How the results depend on the processing

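The numbers of genes on in 2, 1 and 0 crest arrays moved by less than 1.5 times under every alternative run with all 5 arrays. Those on in 5, 4 and 3 arrays were 7, 66 and 336, and became 11, 128 and 515 at a threshold of 2, 3, 42 and 199 at 8, 2, 34 and 215 with each gene centred on its 11-array median, 4, 40 and 216 after quantile normalization, and 79, 413 and 590 against the second-lowest array. Leaving out 1 crest array gave 8 to 44 genes on in all 4 left (44 without array 1, 30 without array 4) and 106 to 279 on in 3; no such value exists for 4 of 5. Snai1 and Ddx47 were on in all 5 arrays under each alternative, while Ppp2r2a, Smarcb1 and Plekhj1 were on in 0 with centring. The crest minus other difference in genes on was never past the threshold and has no stable sign: it was 0 after quantile normalization, which evens these numbers, and -112.4 to 184.2 with 1 array left out, negative without crest arrays 2 (-27.2), 3 (-3.42) or 5 (-112.4), neuroepithelium array 2 (-23.2) or paraxial mesoderm array 3 (-63.0). For phi the direction held and no alternative passed. In limma 4 genes became 1 with an intensity trend, 2 when only genes off by 2-fold somewhere were tested, 2 with 2 groups, and 4 to 28 with 1 array left out.

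With the replicate number as a block limma called 5 genes, 4 higher and 1 lower, and Snai1 kept its call (limma adjusted p = 0.0138). Samples of the same number were not more alike. The 9 same-numbered pairs had a mean correlation of deviations of -0.0454 (-0.153 to 0.0505), beside 0.0136 (-0.164 to 0.169) for 30 other pairs. With ranges that overlap, these correlations cannot decide whether same-numbered samples shared an embryo, which the labels do not state. The number of arrays (5 of crest) limits what the tests can show, and signal over background is unknown, since the table holds ratios.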

Other observations

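Pou5f1, the pluripotency factor Oct4, read 32.6 on array 4 against 0.913 to 0.975 in the rest of crest, and was 45.4 on neuroepithelium array 3 and 106 on paraxial mesoderm array 2. The other 20 of 21 pluripotency genes were on in no crest array. Of 22 imprinted genes 2 (9.09%, beside 14.3% of all genes) were on, both in array 3: the noncoding RNA Meg3 at 13.3 and Phlda2 at 25.9. Both were also on outside crest, where 6 of the 22 were on (27.3%, beside 16.9% of all genes). Apoptosis genes had 5 of 29 on in crest (17.2%, beside 14.3% of all genes) and 12 of 29 outside it (41.4%, beside 16.9%). Htra2, a mitochondrial protease, was 36.1, 41.4 and 26.3 on arrays 2, 3 and 5 and was on in 2 arrays outside crest, and array 4 alone had Bid (33.6) and Cflar (54.7), a promoter and an inhibitor of caspase activation. Both were near 1 on the other 4 crest arrays.

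Of 20 glycolysis genes 3 (15%, beside 14.3% of all genes) were on, and 13 stayed within 2-fold on all 5 arrays. Ldhb, a lactate dehydrogenase subunit, read 1.29, 18.2, 75.6, 17.3 and 13.7, and Pdha1, of pyruvate dehydrogenase, read 25.8, 15.4, 0.422, 0.364 and 10.4. Array 1 was thus off for Ldhb and on for Pdha1. Hdac3, a histone deacetylase, was off on array 1 as well, at 0.357 against 12.9 to 34.5 on arrays 2 to 5.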
